A study of Mus musculus with 54 samples.

Results

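*Fat2*, *F630028O10Rik*, *Aldh1a3* and *Slfn1* are 4 low-abundance mouse transcripts that were scarcer in kidney cell suspensions made by warm digestion than in suspensions made on ice. They were selected on measured values. Of 27541 genes listed in the bulk RNA-seq table of the C57 kidneys, 14102 were tested between warm and cold suspensions. The 4 genes are among the 9 that were called lower in warm suspensions at an adjusted p of 0.05 and had a log2 fold change under −2. Their warm and cold bulk values are therefore described without a test, and nothing is read from a lack of overlap between these groups. The fold changes and SEs given for them come from the libraries that chose them and are descriptions only. The 10x libraries of the same suspensions, and the stored aliquots of them, carry the same warm and cold contrast, so their differences are also given without a test.

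The study compared ways of dissociating and storing adult mouse kidney with 54 samples, made of 15 bulk RNA-seq libraries and 39 droplet (10x) libraries in 18 groups of 3. The C57 kidneys came from male AFAPIL.1DEL C57BL/6J mice of 19 weeks from 1 litter. Warm suspensions were made at 37 °C with an enzyme kit (Miltenyi, Multi Tissue Dissociation Kit 2), and cold ones on ice with a *Bacillus licheniformis* protease that works at low temperature. Each suspension was profiled fresh, after 6 weeks of cryopreservation and after 3 months in methanol. Bulk RNA was taken from cells left over from those dissociations. Balb/c males of 18 weeks, also littermates, gave cold fresh cells, sorted nuclei (FANS, 3 washes, 500 g) and bulk RNA of intact flash-frozen kidney. Balb/c females of 15 weeks, which had been used for breeding, gave cold cells (fresh and cryopreserved for 2 weeks), nuclei from 3 protocols (FANS with 3 washes at 500 g, FANS with 1 wash at 2000 g, and a sucrose cushion), and bulk RNA of intact kidney and of cold suspension. The C57 and male bulk libraries were depleted of ribosomal RNA, whereas the female ones were selected for poly(A). Warm digestion was used for the C57 males only, so strain and digestion cannot be told apart between warm C57 and Balb/c samples, and levels are set side by side within a table only. The study calls its triplicates biological replicates, and warm and cold suspensions differed in enzyme as well as temperature.

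The bulk libraries held 5969212 to 8184923 reads assigned to genes for C57 kidneys, 2326998 to 7879117 for Balb/c males and 21984996 to 31093949 for Balb/c females. The 10x libraries held 983522 to 35170947 UMIs, and a pair of libraries shared at most 2.05% of the barcodes of the smaller one. The 10x files list a gene at 0 in a library unless at least 10 of its barcodes held the gene before the last cell filters. A value of 0 therefore allows up to 9 barcodes of that library.

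The 4 genes are unlike each other in function. *Fat2* encodes a giant cadherin of the Fat family, whose members sit at contacts between neighbouring epithelial cells and orient them within the sheet. *Aldh1a3* encodes a retinaldehyde dehydrogenase, one of the enzymes that oxidise retinaldehyde to retinoic acid, the ligand of the nuclear retinoic acid receptors. *Slfn1* belongs to the Schlafen family of mouse immune genes, which were first described in developing T cells and include interferon-induced members. *F630028O10Rik* is a non-coding RNA whose exon contains the hairpin of miR-223, a microRNA known for its high level in neutrophils, monocytes and macrophages. The RNA of a cell type can be scarce in a suspension because fewer of its cells were released or survived, or because each cell holds less of the RNA, and in bulk libraries these cannot be told apart.

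In the GENCODE vM21 annotation of GRCm38, *Fat2* (ENSMUSG00000055333) lies at chr11:55250609-55336564 on the minus strand, and its exons cover 14528 bases in all. *Aldh1a3* (ENSMUSG00000015134) lies at chr7:66390890-66427517 on the minus strand, with exons covering 4617 bases. *Slfn1* (ENSMUSG00000078763) lies at chr11:83116849-83122670 on the plus strand, with exons covering 1864 bases. *F630028O10Rik* (ENSMUSG00000078122) lies at chrX:96239926-96243636 on the plus strand and is annotated with the biotype antisense, its exons covering 3295 bases. The single annotated gene that overlaps it is *Mir223*, on the same strand at chrX:96242817-96242926. That hairpin falls within 1 exon of each of its 2 transcripts, so that reads from the host RNA and from the primary microRNA transcript are the same reads.

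The mature microRNAs cut from the *Mir223* hairpin are shown because they are the known product of the *F630028O10Rik* locus. They come from RefSeq on GRCm38.p6, with the seed (bases 2 to 8) in capitals.
mmu-miR-223-5p, chrX:96242842-96242864, plus strand: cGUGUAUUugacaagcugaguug
mmu-miR-223-3p, chrX:96242884-96242905, plus strand: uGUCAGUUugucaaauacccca
Neither seed was shared with another of the 1738 mature mouse microRNAs in the table. The microRNAs themselves were not measured by these libraries.

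AU-rich elements in the 3′ UTR mark many short-lived messenger RNAs, and their core is the pentamer ATTTA. It was counted on the sense strand of the annotated 3′ UTRs, with overlapping matches allowed. *Fat2* had 0 copies in 1357 bases and *Slfn1* had 0 copies in 597 bases, whereas *Aldh1a3* had 4 copies in 1799 bases, or 2.22 per kb. Of 11964 tested genes with a 3′ UTR, 71.0% held at least 1 copy, with a median of 1.33 per kb, and 31.1% had a density at or above that of *Aldh1a3*. In a list of transcripts known as short-lived, 81.0% of 21 genes held a copy, with a median of 3.00 per kb. The 4 sites of *Aldh1a3* are shown with 10 bases on either side and the pentamer in capitals, all on the minus strand of GRCm38.
*Aldh1a3* site 1, chr7:66392335-66392359: cccacggttaATTTAaatgcttttt
*Aldh1a3* site 2, chr7:66391673-66391697: ctgggctttcATTTAtgattggcta
*Aldh1a3* site 3, chr7:66391112-66391136: atgttacattATTTAtaattggtat
*Aldh1a3* site 4, chr7:66391053-66391077: gaggtagtgtATTTAaccttctgta
A match is a description of the sequence only. RNA half-lives were not measured in these samples, and *F630028O10Rik* has no coding sequence and hence no 3′ UTR to search.

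In the C57 bulk libraries 51.8 to 59.5% of listed genes were at or below the mean level of each of the 4 transcripts in cold suspensions. In warm suspensions this was 38.1 to 43.5%, at 1 to 6 reads in a library. *Fat2* had 30, 26 and 49 reads in the cold suspensions and 4, 1 and 6 in the warm ones. As CPM, reads scaled to the total reads of the library, this was 3.67, 4.36 and 7.78 against 0.519, 0.145 and 0.804. Cold suspension 3 stood highest, no warm value reached a cold one, and the means were 5.27 ± 2.20 and 0.489 ± 0.331 CPM (SD, n = 3). The fitted log2 fold change, warm over cold, was −3.37 (SE 0.48), and leaving out each library in turn gave −3.88 to −2.96.

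*F630028O10Rik* had 34, 34 and 32 reads in cold suspensions (4.15, 5.70 and 5.08 CPM), and the warm ones had 5, 4 and 2 reads (0.649, 0.579 and 0.268 CPM). The cold values lay close together and far above the warm ones, at means of 4.98 ± 0.776 and 0.499 ± 0.203 CPM, for a log2 fold change of −3.29 (SE 0.35; −3.51 to −2.99 with each library left out).

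*Aldh1a3* had 46, 26 and 27 reads in cold suspensions (5.62, 4.36 and 4.29 CPM) and 5, 6 and 4 in warm ones (0.649, 0.868 and 0.536 CPM). The groups did not overlap, and their means were 4.75 ± 0.750 and 0.684 ± 0.169 CPM. The log2 fold change was −2.81 (SE 0.31).

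*Slfn1* was the scarcest in both groups. It had 12, 14 and 11 reads in cold suspensions (1.47, 2.35 and 1.75 CPM) and 3, 3 and 2 in warm ones (0.389, 0.434 and 0.268 CPM). The lowest cold suspension still held more than the highest warm one, and the means were 1.85 ± 0.449 and 0.364 ± 0.0860 CPM. The log2 fold change was −2.30 (SE 0.43). With each library left out it stayed under −2, as did that of *Aldh1a3*. The genes were chosen for such values in these libraries, so nothing is read from that.

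On a scale per exon length the order in cold suspensions changed, and *F630028O10Rik* came first with 1.51 ± 0.236 RPKM, before *Aldh1a3* with 1.03 ± 0.163, *Slfn1* with 0.994 ± 0.241 and *Fat2* with 0.363 ± 0.152 RPKM (SD, n = 3). *Aldh1a3* and *Slfn1* did not differ beyond their spread on that scale. *Fat2* has by far the longest exons and was the lowest per length.

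**Figure D1:**
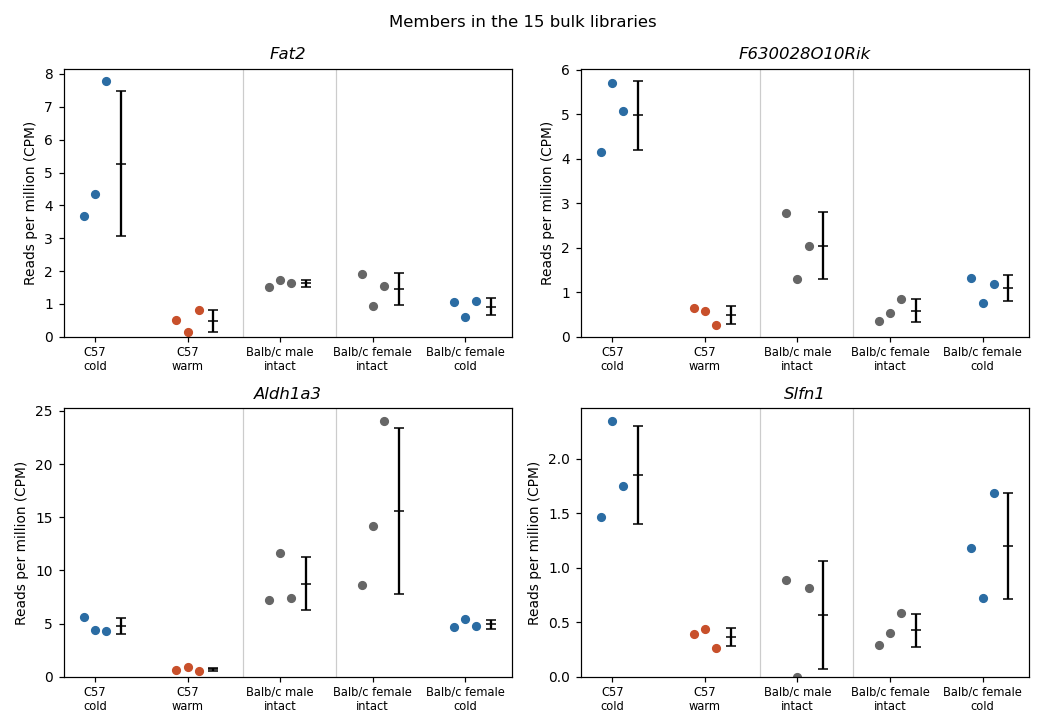
Level of the 4 genes in each bulk library (CPM, scaled to the reads assigned to genes) by group, with points for libraries and bars for the mean and SD of 3 libraries. For each gene the 3 warm C57 suspensions lie below all 3 cold ones, for example 0.145 to 0.804 against 3.67 to 7.78 CPM for *Fat2*. The genes were chosen on these values, so nothing is read from that separation. Within the female libraries *Aldh1a3* is higher in intact kidney than in suspension (8.59 to 24.1 against 4.64 to 5.40 CPM).

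Across the C57 bulk comparison 460 of 14102 genes (3.26%) were called lower in warm suspensions by edgeR's quasi-likelihood test with Benjamini-Hochberg adjustment, and 9 (0.0638%) also lay under −2. The 4 genes are in both counts by selection, and nothing is read from that. Among the others were the basal keratin gene *Krt5* (−2.22), *Gimap7* (−2.17), the platelet tubulin gene *Tubb1* (−2.07) and *Gm15987* (−2.01). *Gm15987* was the last gene inside the limit, and *Ly6d* (−1.98) was the first outside it. *Slfn1*, *Gimap7* and *Gm15987* shared a level of at most 2.35 CPM in every C57 library, where few reads carry the fold change.

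The intact Balb/c male kidneys, which were not dissociated, held all 4 transcripts. *Aldh1a3* was the highest with 7.23, 11.6 and 7.36 CPM (57, 27 and 36 reads). *Fat2* was near constant at 1.52, 1.72 and 1.64 CPM, and *F630028O10Rik* ranged more widely at 2.79, 1.29 and 2.05 CPM. *Slfn1* had 7, 0 and 4 reads, or 0.888, 0 and 0.818 CPM. The kidney with 0 reads had the shallowest library, where 3 reads would have been 1.29 CPM, so *Slfn1* could not be told from the other kidneys at this depth.

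The Balb/c female kidneys allowed a comparison whose values did not enter the rule that chose the genes: intact kidney against a suspension made on ice. The genes and lists were nonetheless chosen with earlier results of these data known. In the female comparison the 4 genes took different directions. Of 16538 genes tested, 2005 (12.1%) were called higher in intact kidney and 1308 (7.91%) lower. Of the 4 genes 1 was called in either direction, too few to set against these shares.

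*Aldh1a3* rose in intact kidney relative to cold suspension. Intact kidneys had 267, 424 and 700 reads (8.59, 14.2 and 24.1 CPM), and cold suspensions had 102, 142 and 112 reads (4.64, 5.40 and 4.73 CPM). The intact kidneys spread widely and the suspensions hardly at all, with means of 15.6 ± 7.83 and 4.92 ± 0.415 CPM and no overlap. The log2 difference, intact over cold, was 1.66 (SE 0.31, adjusted p = 0.0049, edgeR quasi-likelihood test), and it was called in 6 of 6 fits that left out 1 library (adjusted p 0.00052 to 0.025). *Aldh1a3* was thus 3.17 times as high in tissue as in the suspension made on ice.

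*Slfn1* fell. Intact kidneys had 9, 12 and 17 reads (0.289, 0.401 and 0.584 CPM), and cold suspensions had 26, 19 and 40 (1.18, 0.723 and 1.69 CPM). The highest intact kidney was below the lowest suspension, and the log2 difference was −1.47 (SE 0.38, adjusted p = 0.022, edgeR). The call was lost without intact replicate 1 (adjusted p = 0.079), intact replicate 2 (0.077), cold replicate 1 (0.061) or cold replicate 3 (0.077).

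*F630028O10Rik* had 11, 16 and 25 reads in intact kidneys (0.354, 0.535 and 0.859 CPM) and 29, 20 and 28 in cold suspensions (1.32, 0.761 and 1.18 CPM). The groups overlapped, and the log2 difference of −0.88 (SE 0.34) did not pass the test (adjusted p = 0.11, edgeR). Without intact replicate 3, the highest kidney, the difference was −1.25 and passed (adjusted p = 0.040).

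*Fat2* had 59, 28 and 45 reads in intact kidneys (1.90, 0.936 and 1.55 CPM) and 23, 16 and 26 in cold suspensions (1.05, 0.608 and 1.10 CPM). These ranges also overlapped, and the log2 difference of 0.70 (SE 0.33) did not pass (adjusted p = 0.17, edgeR, and 0.072 to 0.45 with each library left out).

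Cell types that hold the 4 transcripts were looked for in the 10x libraries, which were clustered within each mouse group and named from fixed markers, with the suffix -like. *Fat2* and *Aldh1a3* have no row in the C57 or Balb/c female cell files and are listed at 0 in all 3 male cell libraries, where 0 allows up to 0.365%, 0.289% and 0.252% of barcodes. Their cell source could therefore be described in nuclei only, and not in the mice in which warm digestion was used.

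*Fat2* in the female nuclei was concentrated in 1 urothelium-like cluster, led by *Gsdmc3*, *Gsdmc2* and the uroplakin gene *Upk1b*. It was found in 81 of 620 of these nuclei (13.1%, exact 95% interval 10.5 to 16.0%) and in 16 of 3229 nuclei (0.496%) of a proximal tubule-like cluster of similar depth (medians of 3705.5 and 4340 UMIs). The cluster held 0.833% of the nuclei and 40.6% of the *Fat2* UMIs (95 of 234), while all proximal tubule-like nuclei together held 35.0% at a share of 0.260%. All 9 libraries showed it, at 7.69 to 22.6% of the nuclei in this cluster. A second urothelium-like cluster, led by *Sptssb*, *Nrip3* and *Kcnh7*, had it in 0 of 367 nuclei, which allows up to 0.817%, so that the share over both was 8.21%. The first cluster had 53 to 127 nuclei in the FANS libraries and 25, 26 and 32 in the sucrose libraries, where *Fat2* over the whole library was also lowest in the mean (0.598 ± 0.116 CPM of UMIs, against 0.890 ± 0.201 for 3 washes at 500 g and 1.05 ± 0.104 for 1 wash at 2000 g). In male nuclei *Fat2* had 24 UMIs in all, and no cluster exceeded 0.346% of nuclei.

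*Aldh1a3* in the female nuclei was held mainly by 1 of the principal cell-like clusters, led by *Slc4a5*, *Col11a1* and *Fxyd4*, with *Aldh1a3* among its 10 leading genes. Principal cells are the water- and sodium-reabsorbing cells of the collecting duct. It was found in 224 of 1397 of these nuclei (16.0%, exact 95% interval 14.1 to 18.1%), which carried 534 UMIs or 56.5% of the total. By library the share ran from 8.86 to 23.9%. The urothelium-like cluster that held *Fat2* followed with 7.90% of nuclei, then an unnamed cluster of 214 nuclei led by *Scnn1g*, *Egfl6* and *Rasd1* (4.21%) and an endothelial-like cluster with *Plvap* and *Vcam1* among its leading genes (3.48%), whereas proximal tubule-like nuclei had it in 0.248% at a median of 4619 UMIs, above the 2670 UMIs of the principal cell-like cluster. In male nuclei, which were shallower, the principal cell-like cluster was again the highest, at 1.17% of nuclei.

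*F630028O10Rik* was found mainly in myeloid clusters in all 3 sets of cells. The C57 set pools warm and cold libraries of all 3 storage states, and the Balb/c female set fresh and cryopreserved ones, so the shares are averages over them. C57 libraries that list the gene at 0, among them all cryopreserved and methanol-fixed warm ones, count as 0 although each can hide 9 cells. The C57 shares can therefore be too low, and the order of the clusters is not fixed by them. In the C57 cells it was found in 14.1% of a cluster led by *Cd209a* and *Clec10a* that was left unnamed, in 8.51% of monocyte-like cells, in 6.06% of 1 macrophage-like cluster (led by *C1qa*, *C1qc* and *Ccl4*) and in 0.501% of another (led by *Aif1* and *Wfdc17*). These held 93, 53, 126 and 8 of its 298 UMIs, and the last was shallow (median 605.5 UMIs per cell). A neutrophil-like cluster of 120 cells, also shallow (median 620.5 UMIs), had it in 5.83% of cells. Its level of 108 CPM was the highest of the C57 clusters, but rests on 9 UMIs. In the fresh cold libraries alone the shares were higher, at 12.8 to 26.5% in the first macrophage-like cluster, and the *Cd209a* cluster and monocyte-like cells overlapped in level. The 16114 proximal tubule-like cells held 2 (0.0124% of cells, median 1678.5 UMIs, against 1640 in the first macrophage-like cluster). In Balb/c female cells the shares were 47.1% of monocyte-like cells and 35.4% of the larger of 2 macrophage-like clusters, against 0.0282% of proximal tubule-like cells (median depths of 4529, 2506 and 3860 UMIs). The smaller macrophage-like cluster, with a median of 784 UMIs, had it in 1.97% of 304 cells. In Balb/c male cells they were 25.9% and 19.4%, against 0.109% (470, 493 and 501 UMIs). Macrophage-like nuclei of the females had it in 34.0% and held 77.0% of the UMIs, against 0.133% of proximal tubule-like nuclei (1947 and 4619 UMIs). In male nuclei no macrophage-like cluster was found, and 10 of 19 UMIs lay in a proximal tubule-like cluster whose leading genes were *H2-Eb1*, *H2-Ab1* and *Cd74*, which antigen-presenting cells express.

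Fresh C57 cold cells with a UMI of *F630028O10Rik* (157 of 11851) also held *Ifitm6* in 26.1%, against 0.479% of the other cells, and *Mpeg1* in 41.4%, against 1.47%. Both are genes of monocytes and macrophages. The cells with the transcript had a higher median depth (1937 against 1318 UMIs), so these shares are a description only.

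*Slfn1* was found in lymphoid and myeloid cells. In the C57 cells it was detected in 24 of 120 neutrophil-like cells (exact 95% interval 13.3 to 28.3%), in 6.99% of monocyte-like cells, in 3.39% of T cell-like cells and in 1.36% of the first macrophage-like cluster. These held 32, 46, 48 and 26 of its 176 UMIs. C57 libraries that list *Slfn1* at 0, among them all fresh and cryopreserved warm ones, count as 0 here although each can hide 9 cells. The C57 shares can therefore be too low, the interval leaves this out, and the order of the classes is not fixed. Proximal tubule-like cells had it in 0.0310% at a median of 1678.5 UMIs, although the neutrophil-like cells were much shallower (median 620.5 UMIs). In Balb/c female cells it was found in 17.0% of monocyte-like and 15.8% of T cell-like cells, against 0.0141% of proximal tubule-like cells (median depths of 4529, 2313 and 3860 UMIs), and the 9 female nuclei libraries held 12 UMIs in all. It has no row in the files of the Balb/c males. Of the 39 fresh C57 cold cells with a UMI of *Slfn1*, 33.3% held *Cd3d*, against 1.44% of the others, and 28.2% held the monocyte gene *Ly6c2*, against 1.26%.

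Over whole 10x libraries, with UMIs scaled to the UMIs of the library, *F630028O10Rik* was at 20.1 ± 1.64 CPM in Balb/c male cold cells, 11.6 ± 4.85 in fresh and 12.0 ± 6.56 in cryopreserved Balb/c female cold cells, each with the SD of 3 libraries, and at 7.53 to 10.9 in fresh C57 cold cells. Male nuclei held 0.755 ± 0.220, and cryopreserved C57 cold cells 1.84 ± 3.18, all of it from 1 library with 10 UMIs. *Slfn1* was at 1.92 ± 0.712 in fresh and 4.48 ± 2.31 in cryopreserved female cells, and at 2.12 ± 0.498 in fresh and 14.3 ± 6.43 in cryopreserved C57 cold cells. The C57 and male libraries used version 2 of the 10x chemistry and the female ones version 3, so these levels are side by side and not compared. Fresh and cryopreserved libraries also differ in their cells, since the paper reports a strong depletion of proximal tubule cells after cryopreservation. Levels per library before and after storage are therefore not compared either.

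**Figure D2:**
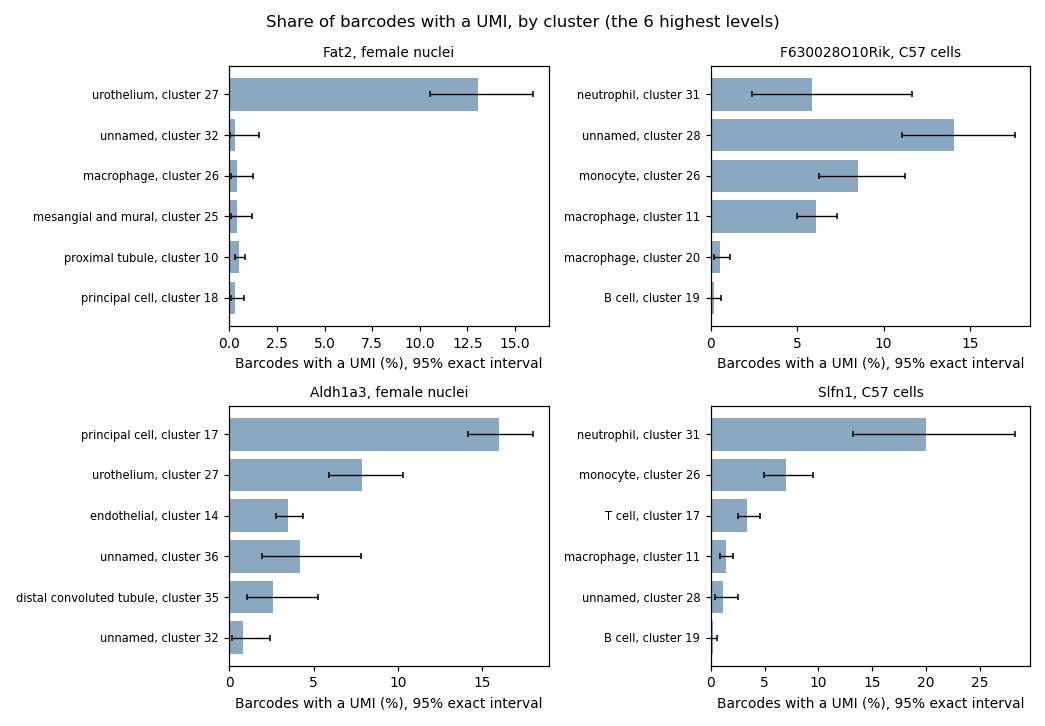
Share of cells or nuclei (%) with at least 1 UMI of each gene in the 6 clusters with the highest CPM, with exact 95% binomial intervals that cover counting error only. *Fat2* peaks at 13.1% in a urothelium-like and *Aldh1a3* at 16.0% in a principal cell-like cluster of the female nuclei, whereas *F630028O10Rik* and *Slfn1* are highest in myeloid or lymphoid clusters of the C57 cells.

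In the fresh C57 10x libraries *F630028O10Rik* was lower in warm suspensions, and *Slfn1* was listed at 0 in all of them. *F630028O10Rik* was found in 26 of 2356, 71 of 4084 and 60 of 5411 cold barcodes (1.10%, 1.74% and 1.11%). In warm libraries it was listed at 0 in replicates 1 and 3 (up to 0.373% and 0.313%) and found in 11 of 5972 barcodes (0.184%) in replicate 2. All 3 cold libraries lay above the warm limits. The UMI sums were 40, 88 and 78 in cold and 0, 12 and 0 in warm libraries, for a log2 fold change of −4.33 (SE 0.55) with the zeros as listed and −2.95 (SE 0.29) with each listed 0 raised to 9 UMIs. Raising a 0 to 9 UMIs assumes 1 UMI in each of the 9 barcodes that it can hide, and is no bound, since a barcode can hold more. Leaving out warm replicate 2, which held the 12 warm UMIs, gave −8.99 as listed, a value that rests on listed zeros alone. In this comparison 853 of 12061 genes (7.07%) were called lower in warm libraries by edgeR.

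*Slfn1* was found in 11, 16 and 12 barcodes of the fresh cold libraries (0.467%, 0.392% and 0.222%), with 13, 19 and 12 UMIs. It was listed at 0 in all 3 warm libraries, which allows up to 0.373%, 0.151% and 0.313% of their barcodes. The cold and warm ranges can therefore overlap. With 9 UMIs in each warm library the log2 fold change was −0.79 (SE 0.68), so that the files bound the fresh *Slfn1* difference only loosely.

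After cryopreservation *Slfn1* was the better measured of these 2 genes. Cold libraries had 33, 19 and 33 UMIs in 27, 18 and 27 barcodes (3.01%, 1.11% and 2.72%), and all 3 warm libraries listed it at 0 (up to 0.717%, 0.900% and 0.733%). Each cold share lay above each warm limit, and with 9 UMIs in each warm library the log2 fold change was −1.41 (SE 0.46). *F630028O10Rik* had 10 UMIs in the first cold library (1.11% of 897 barcodes) and was listed at 0 in the other 5 (up to 0.552% to 0.906%), too few to compare. The background was 270 of 10086 genes called lower (2.68%).

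After methanol fixation *F630028O10Rik* had 11, 25 and 34 UMIs in cold libraries (0.530%, 0.449% and 0.592% of barcodes), and was listed at 0 in the 3 warm ones (up to 0.620%, 0.272% and 1.15%). The limits of warm replicates 1 and 3 reach past each cold value and that of warm replicate 2 lies below them, and raising each warm 0 to 9 UMIs gave a log2 fold change of 0.20 (SE 0.92). The direction is thus not fixed by these libraries. *Slfn1* was found in both groups here, with 0, 20 and 15 UMIs in cold and 0, 12 and 0 in warm libraries (the zeros allow up to 0.477% of barcodes in the cold library and 0.620% and 1.15% in the warm ones), and in the second libraries of either group its shares were 0.364% and 0.332%. Here 83 of 9996 genes were called lower in warm libraries (0.83%).

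**Figure D3:**
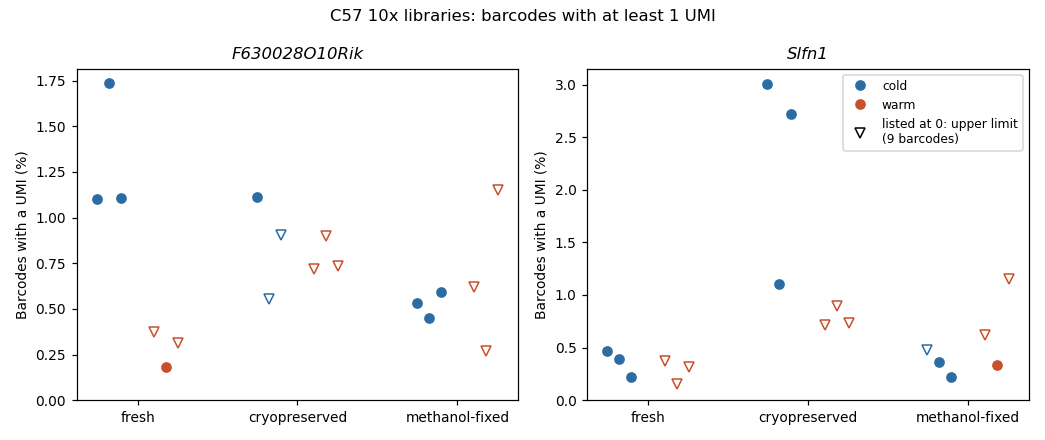
Percent of barcodes with at least 1 UMI of *F630028O10Rik* or *Slfn1* in each C57 10x library, by storage and digestion, where triangles mark the upper limit of 9 barcodes for a library that lists the gene at 0. Fresh cold libraries have *F630028O10Rik* in 1.10 to 1.74% of barcodes, above every fresh warm value or limit, and the limits of 2 of the 3 methanol-fixed warm libraries reach above the cold values.

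The macrophage-like cells allowed the amount of *F630028O10Rik* per cell class to be set beside the number of cells. Macrophage-like cells made up 5.18%, 5.12% and 5.97% of the fresh cold barcodes and 4.85%, 5.61% and 4.77% of the warm ones, so the shares of the class as a whole overlapped. Within them *F630028O10Rik* had 17, 43 and 30 UMIs in 122, 209 and 323 cold cells, or 90.7, 141 and 79.0 CPM of the UMIs of these cells. In 117, 335 and 137 warm cells it had 0, 8 and 0 UMIs, or 0, 17.4 and 0 CPM. As shares of cells this was 9.02%, 17.2% and 8.05% in cold libraries, against up to 7.69%, then 2.09%, then up to 6.57% in warm ones, where a listed 0 can hide 9 cells. These limits lay below each cold share, but the levels in CPM are bounded less tightly. At 1 UMI for each hidden cell the zeros would be 54.3 and 47.9 CPM, and at 1.55 UMIs, the highest mean of positive cells in a cold library, 84.0 and 74.0 CPM, the former above the lowest cold level. The log2 fold change was −3.42 (SE 0.60) as listed, −1.64 (SE 0.42) with 9 UMIs for each 0 and −7.71 as listed without warm replicate 2. Of 2316 genes tested in this class 7 (0.302%) were called lower by edgeR.

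The make-up of the macrophage-like class differed between digestions. The cluster led by *C1qa* and *Ccl4* holds most of the *F630028O10Rik* UMIs of this class. It was 45.1%, 65.1% and 58.2% of the macrophage-like cells in cold libraries and 34.2%, 34.0% and 36.5% in warm ones. In cells this was 55 of 2356, 136 of 4084 and 188 of 5411 cold barcodes. In warm libraries it was 40 of 2412, 114 of 5972 and 50 of 2873 barcodes. Unlike the whole class, the cluster was thus a smaller share of barcodes in each warm library than in each cold one. The part of this in the *F630028O10Rik* difference was not tested. Within that cluster *F630028O10Rik* was at 115, 184 and 105 CPM in cold libraries and at 0, 24.7 and 0 in warm ones. It was found in 20%, 26.5% and 12.8% of the cold cells of the cluster, against up to 22.5%, then 5.26%, then up to 18% of the warm ones. The warm limits reach into the cold shares here, so the libraries with a listed 0 do not fix a difference within the single cluster, and warm replicate 2 alone lay below each cold library. The warm cells of the cluster were deeper (median 2323 to 2888.5 UMIs) than the cold ones (1342 to 2306).

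Adding the monocyte-like, neutrophil-like and *Cd209a* clusters to the macrophage-like cells, a pool chosen after the data were seen, covered all but 4 of the 206 cold UMIs of *F630028O10Rik* and all 12 warm ones. The cells that make up the pool also differed between digestions. The *Cd209a* cluster was 0.594 to 1.07% of cold and 0.368 to 0.557% of warm barcodes, and monocyte-like cells were 0.340 to 1.40% and 0.249 to 0.435%. In cold libraries *F630028O10Rik* was at 167 to 250 and 189 to 226 CPM in them, above its level in macrophage-like cells. The part of this make-up in the pooled difference was not tested. The pool was 6.11%, 7.69% and 7.89% of the cold barcodes and 5.64%, 6.46% and 5.60% of the warm ones. *F630028O10Rik* in it was at 132, 157 and 131 CPM in cold libraries, against 0, 19.5 and 0 in warm ones, where 9 hidden cells at 1.58 UMIs each, the highest cold mean of positive cells, would give 64.0 and 50.5 CPM. The shares of cells with it were 16.7%, 22.6% and 13.6% against up to 6.62%, then 2.85%, then up to 5.59%, so that each cold share lay above each warm limit. The log2 fold change was −3.72 (SE 0.52) as listed, −2.33 (SE 0.28) with 9 UMIs for each 0 and −8.78 as listed without warm replicate 2. Of 3828 genes tested in the pool 9 (0.235%) were called lower by edgeR.

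**Figure D4:**
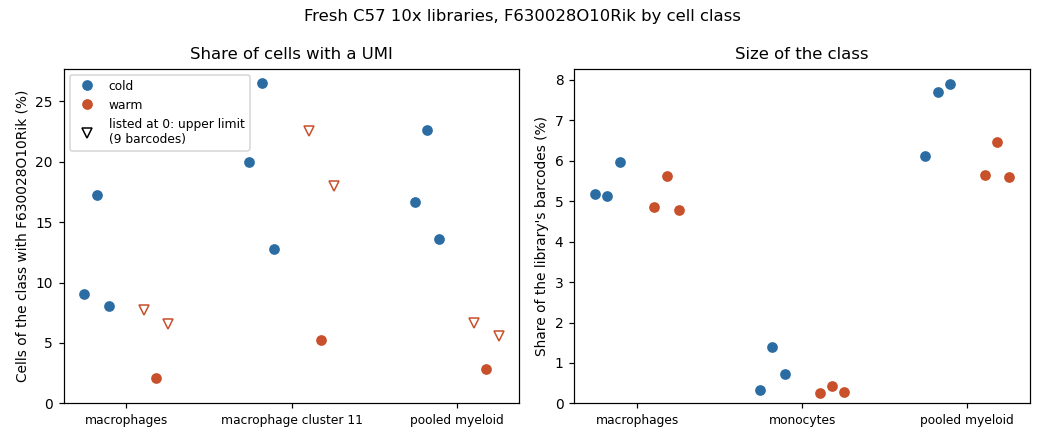
Percent of fresh C57 macrophage-like cells, of their cluster 11 (led by *C1qa*, *C1qc* and *Ccl4*) and of pooled myeloid cells with at least 1 UMI of *F630028O10Rik* (left), and the percent of all barcodes that macrophage-like, monocyte-like and pooled cells make up (right), 1 point per library, with triangles for the limit of 9 barcodes where the gene is listed at 0. Cold shares of 8.05 to 17.2% in macrophage-like cells lie above the warm values and limits, and those of cluster 11 overlap the warm limits. The percentages of barcodes in the whole macrophage-like class (5.12 to 5.97% cold, 4.77 to 5.61% warm) overlap. Cluster 11 as a percentage of barcodes is not drawn and was lower in each warm library than in each cold one.

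For *Slfn1* the cells per class were too few for such a reading. Fresh cold T cell-like cells held 14 UMIs in 275 cells (4.73% of cells) and the 152 warm ones held 0, and with 9 UMIs in each warm library the log2 fold change was 1.30 (SE 0.59), so its direction is not fixed by the files. Neutrophil-like cells, which had the highest *Slfn1* level, numbered 14 in fresh cold libraries and 5 in warm ones, and monocyte-like cells 104 and 40. After cryopreservation the cold libraries had *Slfn1* in 10.2% of 236 monocyte-like, 21.1% of 57 neutrophil-like and 5.28% of 322 T cell-like cells, and the warm libraries listed it at 0 in 73, 17 and 308 such cells. A 0 can hide 9 of these cells in each warm library, so the classes are not compared here. After methanol fixation T cell-like cells had it in 5.95% of 168 cold and 5.48% of 73 warm cells.

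*F630028O10Rik* in nuclei varied with the isolation protocol of the female nuclei. It was at 0.592, 0.822 and 0.808 CPM in nuclei sorted after 3 washes at 500 g, at 2.50, 3.08 and 2.70 after 1 wash at 2000 g and at 2.94, 2.44 and 3.17 after the sucrose cushion. The 3-wash libraries lay below all others. They also held fewer macrophage-like nuclei (147, against 263 and 305), of which 22.4% had the transcript, against 41.8% and 32.8%. The protocols were not tested against each other. How many of all genes separate them in this way was not computed, so nothing particular to *F630028O10Rik* is read from it. *Aldh1a3* overlapped between them, with 2.44 to 5.92, 2.79 to 3.98 and 2.84 to 3.23 CPM.

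Markers of the cells in which the 4 genes were found moved in different ways in the C57 bulk libraries, where the median log2 fold change of all tested genes was −0.01 and 3.26% of them fell. Of 4 tested neutrophil markers 2 fell and 0 rose in warm suspensions (median −0.97), namely *Mmp9* (−1.44) and the G-CSF receptor gene *Csf3r* (−1.003). The summed level of the list was 19.6 to 23.2 CPM in cold and 10.1 to 13.0 CPM in warm suspensions, where *Ly6g* was at 0 in all 3 libraries and at 1 read in 1 cold library. Of 4 monocyte markers 2 fell, *Ly6c2* (−1.47) and the chemokine receptor gene *Ccr2* (−1.06), and the sum was 42.8 to 48.6 CPM against 21.6 to 25.6 CPM. Of 4 dendritic cell markers, a list with *Cd209a* in it, 1 fell, *Clec9a* (−1.03), and the sum was 31.0 to 34.1 against 23.4 to 28.6 CPM. DESeq2 called 1 of the neutrophil, 2 of the monocyte and 0 of the dendritic cell markers lower, and edgeR's exact test 2, 3 and 1. The sums of these 3 lists moved in the same direction as *F630028O10Rik* and *Slfn1* with no overlap between groups. That direction was not particular to them, since lists of cells that held few or no UMIs of either gene also fell without overlap, among them B cell (6 of 7 markers, 88.0 to 116 against 55.7 to 72.1 CPM), mesangial and mural cell (5 of 8, with 1 higher) and podocyte (5 of 10). The macrophage markers fell less, 1 of 7 (*C1qc*, −0.76), with overlapping sums of 151 to 195 and 111 to 165 CPM, and 0 of 6 T cell markers were called by edgeR's quasi-likelihood test, by its exact test, by DESeq2 or at an unadjusted p under 0.05. Their part in the lower *F630028O10Rik* and *Slfn1* was not tested.

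For *Aldh1a3* the markers of its main cell class in nuclei moved the other way. Of 7 principal cell markers 6 rose in warm suspensions and 0 fell (median 1.24, where 5.42% of all genes rose), and their sum was 770 to 995 CPM against 245 to 478 CPM in cold suspensions. *Aldh1a3* was lower in the same libraries. The rise was not particular to principal cells. Connecting tubule (5 of 5), intercalated cell (6 of 7), distal convoluted tubule (3 of 4) and thick ascending limb markers (4 of 7) rose too, and 0 of each fell. The principal cell list covers the class as a whole, whereas 534 of its 544 *Aldh1a3* UMIs in female nuclei lay in 1 cluster. The part of these lists in the *Aldh1a3* difference was not tested. The rise of the principal cell list was not seen in the fresh 10x libraries of these suspensions. In warm libraries 2 of 7 principal cell markers were lower and 0 higher (median −0.50, edgeR). There 4 of 7 macrophage markers and 2 of 7 T cell markers were also lower and 0 higher, against 7.07% of all genes called lower. DESeq2 called 3 of the macrophage and 0 of the T cell markers lower there. For *Fat2* the urothelial markers were scarce: of 10, 4 were tested and 1 fell, *Krt5* (−2.22), which marks the basal layer, while the uroplakin genes *Upk1a* (−0.75) and *Upk1b* (−0.61) did not pass. The sum of the list was 18.4 to 21.8 CPM in cold and 9.47 to 13.5 CPM in warm suspensions, without overlap. *Krt5*, which passed the same limit in these libraries as the 4 genes, is part of that sum. It was at 4.28, 5.03 and 5.24 CPM in cold and 0.779, 0.579 and 1.74 CPM in warm suspensions, so nothing is read from the separation. The urothelium-like cluster with *Fat2* also held 7.41% of the *Aldh1a3* UMIs of the female nuclei. The part of the urothelial sum in the *Fat2* and *Aldh1a3* differences was not tested.

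The female bulk libraries gave the same lists another order. Of 10 urothelial markers 6 rose in intact kidney and 0 fell (median 1.75, against −0.003 for all genes, of which 12.1% rose and 7.91% fell), led by *Upk1b* (3.49), *Upk3a* (3.44) and *Psca* (3.43), while the basal markers *Krt5* (−0.15) and *Trp63* (0.06) did not pass. Their sum of 43.6 to 55.8 CPM in intact kidney and 25.2 to 32.6 CPM in suspension moved with *Aldh1a3*, whereas the principal cell list fell in intact kidney (4 of 7, median −0.62). The endothelial list rose too (6 of 8, 530.3 to 605 against 374 to 405 CPM), and endothelial-like nuclei held 11.7% of the *Aldh1a3* UMIs of the female nuclei, against 7.41% in urothelium-like ones. Endothelial-like nuclei were 12.6% of the female nuclei and had *Aldh1a3* in 1.13%, whereas urothelium-like ones were 1.33% and had it in 4.96%. Fibroblast markers rose in 6 of 6 cases. Neutrophil markers fell in 3 of 4 cases, with *Retnlg* and *Camp* at 0 in all intact kidneys, and T cell markers in 4 of 8. Their sums were 1.74 to 3.13 against 4.18 to 14.0 CPM and 7.56 to 10.9 against 13.5 to 16.4 CPM, in the same direction as *Slfn1*. The monocyte sum, 12.4 to 16.8 against 19.8 to 26.8 CPM, moved that way too, as did B cell (6 of 7) and erythroid markers (5 of 5). The macrophage list was split, with 6 of 7 markers lower in intact kidney, among them *C1qa* (−1.09) and *Adgre1* (−1.33), and *Csf1r* higher (1.29). Its sum, most of which is *Csf1r* in intact kidney, was 149 to 163 against 120 to 150 CPM. The part of these lists in the *Aldh1a3*, *Slfn1* and *F630028O10Rik* values was not tested.

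**Figure D5:**
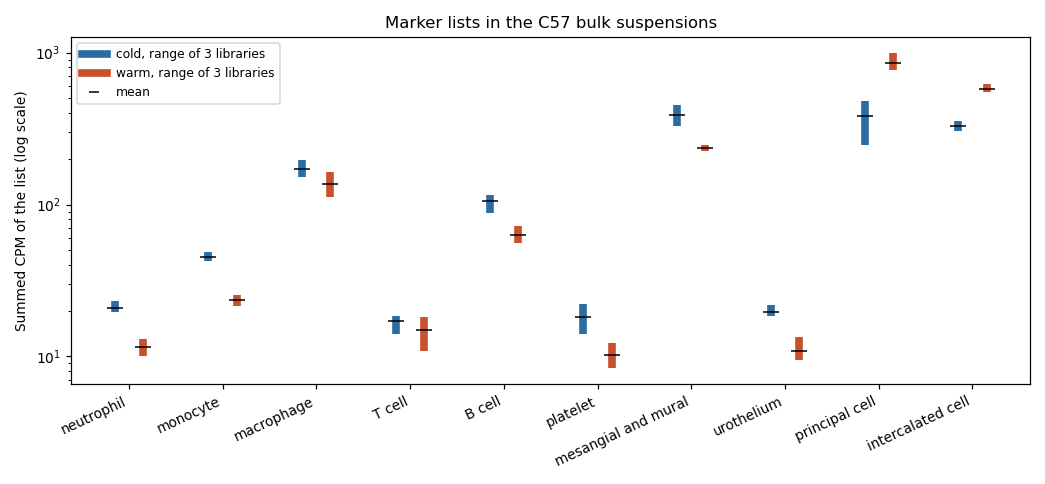
Summed level of some of the marker lists in the cold and warm C57 bulk suspensions (CPM, log axis), with the range of 3 libraries and their mean. Neutrophil, monocyte and urothelium sums are lower in warm than cold C57 suspensions without overlap, and the principal cell sum is higher (770 to 995 against 245 to 478 CPM).

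No relative of the 4 genes that was tested in the C57 bulk libraries was called lower in warm suspensions by edgeR's quasi-likelihood test. With 3.26% of all tested genes called lower, lists of this size could hold few calls, and nothing particular to them is read from the zeros. Of the 15 other retinoid pathway genes tested in the C57 bulk libraries 0 fell and 1 rose, the retinoic acid hydroxylase gene *Cyp26b1* (1.22), while the sister dehydrogenase genes *Aldh1a1* (−0.68) and *Aldh1a2* (−0.80) did not pass (list median −0.06). Of the 6 tested relatives of *Fat2* 0 fell and 1 rose, *Celsr1* (0.34), with *Fat1* at 0.01 and *Fat4* at −0.16 (median −0.04). Of 6 other Schlafen genes 0 were called, with *Slfn4* at −0.79 and *Slfn8* at −0.79 (median −0.37), and of 5 other microRNA host transcripts 0 were called. At an unadjusted p under 0.05, 4 of the retinoid genes, 1 of the *Fat2* relatives, 2 Schlafen genes and 1 host transcript were lower. DESeq2 called 1, 0, 0 and 0 of them lower and edgeR's exact test 1, 0, 1 and 0. In the fresh 10x sums *Fat2* and *Aldh1a3* have no row. There 1 of 4 tested genes of the *Fat2* list was called lower and 0 higher (median −0.58), and 1 of 13 retinoid genes lower and 1 higher. Of all genes 7.07% were called lower there, and nothing is read from these counts.

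In intact female kidney against cold suspension some relatives of the 4 genes were called in either direction, where 12.1% of all genes were called higher and 7.91% lower. Of 19 retinoid genes, *Aldh1a3* included, 4 rose and 1 fell (median 0.23), and *Aldh1a2* (1.26), which makes the same product, was among those that rose. Of 7 Schlafen genes 2 fell, *Slfn4* (−2.32) and *Slfn1* itself, and *Slfn5* rose (0.81). Of the 7 genes of the *Fat2* list 4 rose, *Dchs1* (0.97), *Fat4* (0.77), *Fat1* (0.72) and *Celsr1* (0.65), and *Fat2* at 0.70 stood at the list median without passing. Of 6 microRNA host transcripts the host of another blood cell microRNA fell, *Mir142hg* (−2.36).

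Transcripts known for short half-lives were, as a list, higher and not lower in warm suspensions. Of 22 tested in the C57 bulk libraries 9 rose and 0 fell by edgeR's quasi-likelihood test, where 5.42% of all genes rose and 3.26% fell (median 0.60; 15 higher and 1 lower at an unadjusted p under 0.05, and 8 and 0 by DESeq2), led by *Socs3* (4.49), *Plk2* (2.36) and *Plk3* (1.94). Many of them are also induced by stress, and induction and decay cannot be told apart in levels. Of 10 interferon-stimulated genes 1 fell in warm suspensions, *Rsad2* (−0.46). Whether the 4 transcripts are short-lived in these cells was not tested.

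Across the 15 bulk libraries, with each gene's log2 CPM centred within its experiment, the closest of 13191 genes to *Fat2* were *Krt5* (Pearson r = 0.92), *Ctse* (0.92) and *2310058D17Rik* (0.90). The closest to *F630028O10Rik* were *Synpo2* (0.94), *Gm21781* (0.93) and *Hr* (0.92), those to *Aldh1a3* were *Fcgbp* (0.93), *Napepld* (0.93) and *Tbkbp1* (0.92), and those to *Slfn1* were *mt-Tm*, *D630023F18Rik* and *Sparcl1* (each 0.92). These likenesses are a description, since the libraries share their warm and cold contrast. Among the 4 genes themselves r was highest for *F630028O10Rik* and *Slfn1* (0.89) and lowest for *Aldh1a3* and *Slfn1* (0.28).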

How the data were processed

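The genes and lists were chosen with earlier results of these data known. The authors deposited read counts per gene for bulk libraries (Trim Galore, STAR 2.6.1a and featureCounts per the labels and methods) and UMI counts per gene and barcode for 10x libraries (Cell Ranger 2.1.1 and Seurat 2). Those 10x files keep barcodes with at least 200 genes and genes in at least 10 barcodes of a library. Whether counting used strand was not given in the sources used here.

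Here, bulk counts and UMI counts summed per library were fitted with edgeR 4.0.16 (TMM, filterByExpr, quasi-likelihood test, Benjamini-Hochberg adjustment over all genes tested, threshold 0.05) in R 4.3.3, only the 2 groups compared entering a fit. An SE is the absolute log2 fold change divided by the square root of the F statistic of the quasi-likelihood test. CPM used all counts in the table. Barcodes of each mouse and material were clustered (2000 variable genes, 30 components, Leiden resolution 2, leidenalg 0.10.2), and a cluster was named from at least 3 of its fixed markers. Doublets were kept in the values given. Named were the 4 genes, the other genes lower by over 2 on the log2 scale, up to 4 called genes per list, and defining markers, and some genes these rules name are not reported here. Alternatives were DESeq2 1.42.0, edgeR's exact test, other filters, a replicate block and each library left out. Scripts were tested on simulated data.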

Additional observations from a re-analysis of the deposited data

How the results depend on the processing

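Of 40 recomputed differences of the 4 genes between intact female kidney and cold suspension, 35 kept their direction and their side of the threshold, 4 no longer passed and 1 newly passed. The warm against cold differences carry the contrast that chose the genes and are given by direction alone, which 94 of 95 kept. In the C57 bulk refits the direction followed from the selection, and the droplet differences rest partly on listed zeros. The count is therefore no measure of robustness. Fits of *Slfn1* within cell classes are not among the 95. With listed zeros raised to 9 UMIs these *Slfn1* fits turned from −5.13 to 1.30 in T cell-like cells. In pooled myeloid cells they turned from −5.86 to 0.58 (first values without the filter). With each listed 0 raised to 9 UMIs, *F630028O10Rik* in macrophage-like cells moved from −3.42 to −1.64, and in methanol-fixed sums it turned to 0.20. Genes called lower in C57 bulk went from 460 to 734 without the filter. In cryopreserved sums (270) DESeq2 called 550, the exact test 642 and genes above 0 in each library 490; in methanol-fixed sums (83) these called 229, 375 and 163. With each library left out the counts ran from 219 to 327 (C57 bulk), 254 to 1170 (fresh), 35 to 234 (cryopreserved), 26 to 778 (methanol-fixed, the highest without warm replicate 2) and, in both directions, 2385 to 3086 of 3313 (female bulk). The cause was not tested.

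The same number stands in the barcode names of warm and cold C57 10x libraries, and whether it marks a shared animal was not stated. Deviations of same-numbered libraries correlated at −0.172 to 0.176, which cannot decide that. The main fits are unpaired. With the number as a replicate block 36 genes were called lower in cryopreserved sums, 133 in methanol-fixed and 760 in fresh ones, against 270, 83 and 853 without it. The C57 and female bulk labels were not blocked.

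Leaving out barcodes with 3 markers of a second class removed 57.1% of the C57 cells, so a criterion of another lineage (1.38%) was added after the data were seen. The share of *Aldh1a3* UMIs in principal cell-like nuclei became 64.3% under the first, and that of *F630028O10Rik* in macrophage-like nuclei 68.0% and 72.3%. At Leiden resolution 1 monocyte-like and macrophage-like male cells merged. *Slfn1* rests on few reads, and in 10x sums on listed zeros.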
